A study of Mus musculus with 2 samples.

Results

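Genes of DNA replication and mitosis were followed in mouse small-intestinal organoids that had been cultured with or without RankL. The set holds 55 genes listed by symbol, namely 29 that act in S phase and 26 that act in G2 and mitosis (from here G2/M genes). Probes were matched for 52 of them (70 probes of 41174 on the array), since Rpa1, Rrm2 and Prc1 had no probe matched through a RefSeq accession. A gene counted as measured where both arrays showed a probe of it well above background in the same RNA, RankL or untreated. This held for 51 members of 12877 measured genes, that is 27 S-phase and 24 G2/M genes, and only the kinase gene Ttk was on the array but too dim. Of the 51, 50 were well above background in both RNAs on both arrays. The exception was Ndc80, which was so in RankL RNA on 1 of 2 arrays.

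The treated organoids came from wild-type mouse intestine and received recombinant mouse RankL in a stated range of 50 to 200 ng/ml, and medium was renewed on day 2 and day 5. The untreated organoids were of the same kind and were grown without RankL. Both were kept in medium with EGF, Noggin and R-spondin, factors that hold crypt cells in a proliferating state. For these RNAs the dose within that range, the harvest time, the mouse strain and the age are not stated in the sources. RankL is a cytokine of the TNF family whose receptor RANK signals through NF-kB, and the series concerns its induction of M cells, the antigen-sampling cells over Peyer's patches. Organoids of this kind are grown from the intestinal epithelium.

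Cells copy their DNA once per cycle. Before S phase the Mcm2 to Mcm7 ring is loaded on DNA with the help of Cdc6, and with Cdc45 and the GINS complex it becomes the replicative helicase. Polymerases, the sliding clamp Pcna and its loader then copy both strands from nucleotides that Tyms, Tk1 and ribonucleotide reductase help to supply. Later in the cycle Cdk1 with its cyclins starts mitosis, Aurora and Polo kinases build the spindle, and the anaphase-promoting complex ends it. E2F factors drive many S-phase genes, while many G2/M genes are controlled through CCAAT boxes and the CHR element in their promoters. In the intestine these genes mark the dividing cells of the crypt, which leave the cycle as they differentiate.

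Both RNAs were hybridised together on each of 2 arrays of 1 slide, with the dyes exchanged. RankL RNA carried Cy3 on array 1 and Cy5 on array 2. The labels call array 2 the dye swap of array 1, which was read as a single pair of RNAs labelled both ways. Each group then has 1 replicate, and nothing could be tested. Values below are log2 ratios of RankL over untreated unless a signal is named. The number after ± is the SD over both arrays, which on that reading measures labelling and hybridisation and not how cultures vary. Of all non-control spots, 38.3% to 43.4% were well above background in an RNA on an array. Having 1 RNA per group limits the precision. All 7 genes of a RankL response list were at least 2-fold higher, among them the M cell genes Spib at 4.21 ± 0.28 and Gp2 at 5.15 ± 0.043. The list was chosen with earlier results of these data known, so it is no independent check of the treatment. Of the epithelial markers 11 of 11 were measured, against 1 of 9 immune markers (Fcer1g) and 4 of 10 of fibroblasts and endothelium (Vim, Col1a2, Acta2 and Pdgfrb). Of these 4, Vim, Col1a2 and Acta2 were well above background in both RNAs on both arrays, so some RNA of such genes was present. Ptprc, Csf1r, Pecam1 and Pdgfra were not well above background in either RNA on either array.

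Replication and mitosis genes were lower with RankL, nearly all of them and by a small step. Of the 51 measured members, 46 (90.2%) lay below 0 on both arrays, 3 lay above 0 on both (Pold1, Pole and Kif20a) and 2 were mixed (Rfc2 and Bub1). Among all measured genes, 35.1% lay below 0 on both arrays and 37.3% above. The members' median was -0.42 (-0.38 on array 1 and -0.41 on array 2), a level of 74.8% of the untreated one, while the median of all measured genes was 0.0086. The middle range of the members, from the lower to the upper quartile, ran from -0.51 to -0.29. In bulk RNA such as this, fewer dividing cells and less of these transcripts per cell cannot be told apart.

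The step was seldom large. The size rule asked for a mean of 1 or more in size, which is 2-fold, with each array reaching 0.5 in that direction. By it, 1 member was lower and 0 were higher, where 2.5% of all measured genes were lower and 5.47% higher. With the milder limit of at least 0.5 lower on each array, 7 members (13.7%) qualified against 6.63% of all measured genes. They were Mcm3, Rfc4, Rfc5, Lig1, Tk1, E2f1 and Ccnb2. At least 0.5 higher on each array were 0 members, against 10.2% of all measured genes. By direction the members' share was far above that of all genes, while by the size rule it was near or under it.

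**Figure D1:**
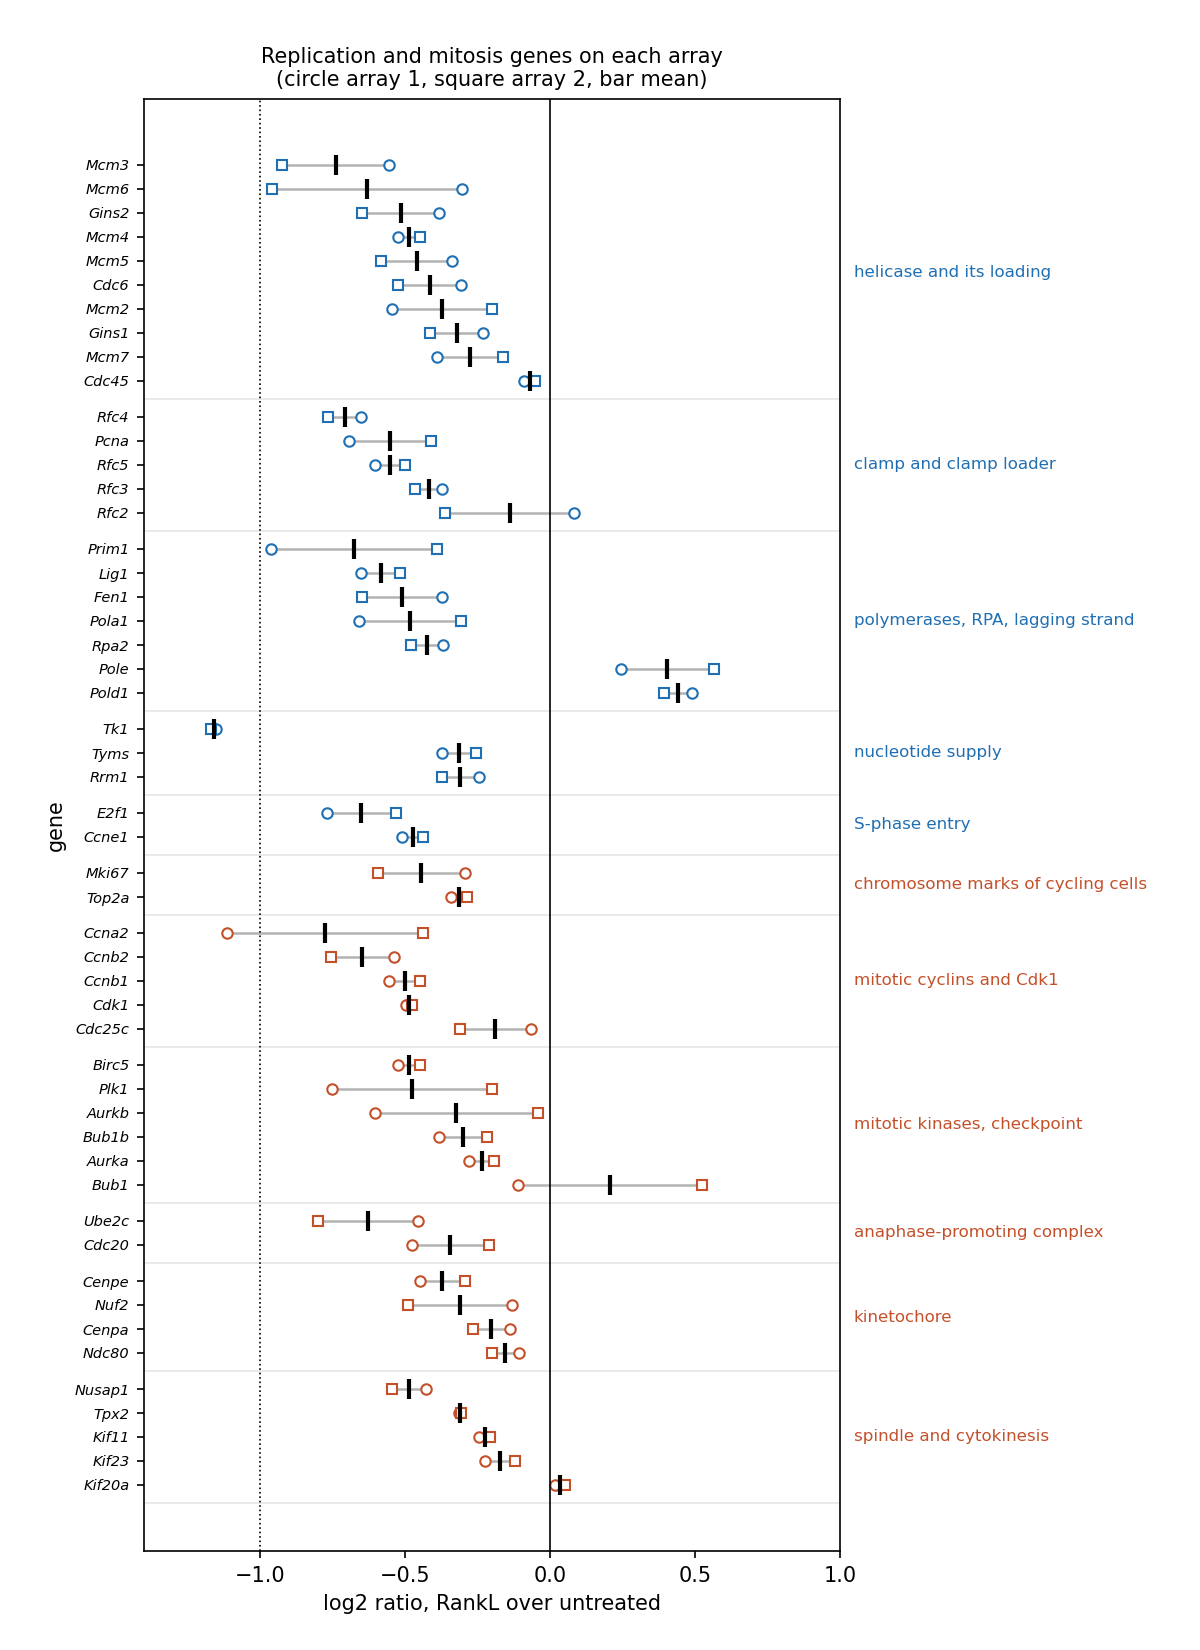
Log2 ratio of RankL over untreated for the 51 measured genes, by role, with array 1 as circles, array 2 as squares and the mean as a bar; S-phase genes are blue, G2/M genes red, and the dotted line is the 2-fold limit at -1. Most pairs of points lie between 0 and -1, with Tk1 beyond the limit and Pold1, Pole and Kif20a to the right of 0.

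The spread among members was larger than the error between arrays for most of them. The SD over the 51 mean ratios was 0.28, and the median SD between arrays was 0.12, against 0.15 for all measured genes. Neighbours in the order of the members therefore often do not differ beyond that error. Mcm6, Prim1, Ccna2, Aurkb, Bub1 and Plk1 differed by at least 0.5 between the arrays, and their place in the order is the least certain. Of 12 members with several measured probes, 11 had all probes on the same side of 0, with a median span of 0.12 between probes and a largest span of 0.40, in Ccnb1. The exception was Bub1.

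**Figure D2:**
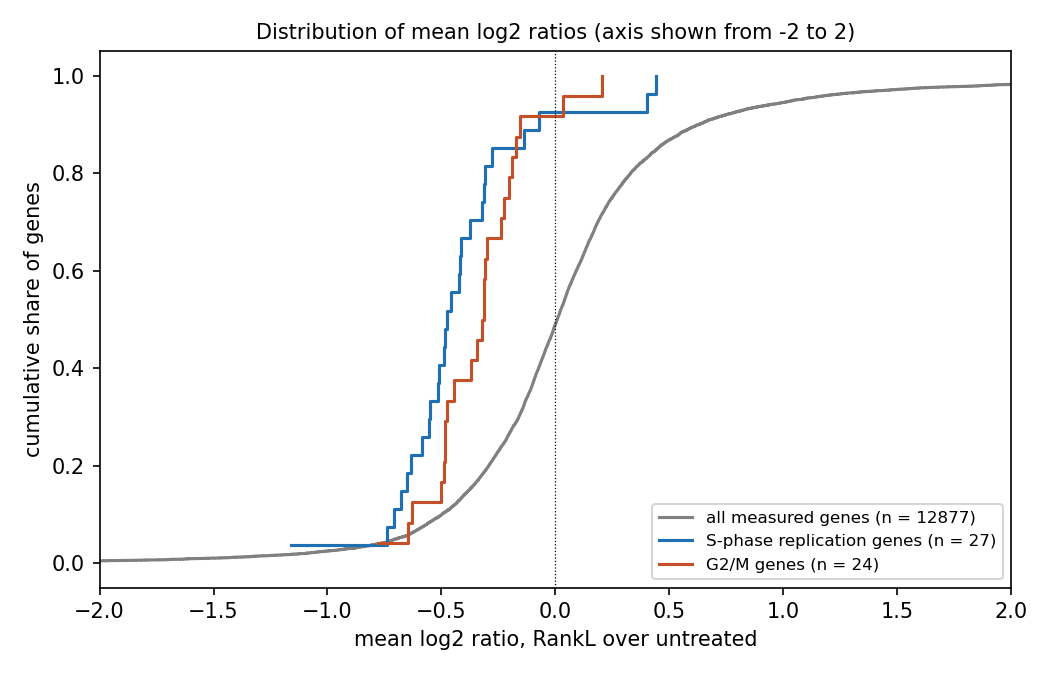
Cumulative share of genes by mean log2 ratio for 27 S-phase genes (blue), 24 G2/M genes (red) and all 12877 measured genes (grey). Both coloured curves lie to the left of the grey curve over most of the range, with medians of -0.47 and -0.32 against 0.0086.

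The gene with the largest difference was Tk1, thymidine kinase, which salvages thymidine for DNA synthesis. Its signal after the scanner software's dye normalization was 3460 in RankL RNA and 8069 in untreated RNA on array 1, and 3315 and 8388 on array 2. The RankL signal was the lower on both arrays by nearly the same factor. The ratio was -1.16 ± 0.012, or 2.23-fold lower, at percentile 1.82 of all measured genes. The other measured genes of nucleotide supply were closer to 0. Tyms, thymidylate synthase, was at -0.31 ± 0.082, with its other probe at -0.26, and Rrm1, the large subunit of ribonucleotide reductase, at -0.31 ± 0.091.

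All 10 genes of the helicase and its loading were below 0 on both arrays, with a median of -0.44. Mcm3 had signals of 1021 with RankL and 1757 without on array 1, and 961.2 and 1954 on array 2. It was thus lower on both arrays, at -0.74 ± 0.26. Mcm6, the brightest member, had signals of 24231 and 29140 on array 1 and of 21664 and 38942 on array 2. It was lower on both but by unlike amounts, -0.31 and -0.96. The other ring subunits were Mcm4 at -0.49 ± 0.054, Mcm5 at -0.46 ± 0.17, Mcm2 at -0.37 ± 0.24 and Mcm7 at -0.28 ± 0.16, so all 6 subunits shared the direction. The partners of the ring were Gins2 at -0.52 ± 0.19, Gins1 at -0.32 ± 0.13 and Cdc45 at -0.070 ± 0.028, and the loader Cdc6 was at -0.41 ± 0.15. Cdc45 and Cdc6 were dim, and the scanner software's ratios read -0.42 and -0.81 for them.

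The clamp Pcna had signals of 12047 with RankL and 20201 without on array 1, and of 13634 and 18534 on array 2. It was lower on both arrays, at -0.55 ± 0.20. Of its loader, Rfc4 was at -0.71 ± 0.080, Rfc5 at -0.55 ± 0.072 and Rfc3 at -0.42 ± 0.066. Rfc3 was dim, and the scanner software's ratio read -0.86 for it. Rfc2 was at -0.14 ± 0.31, with 0.083 on array 1 and -0.36 on array 2. The brightest Rfc2 probe thus crossed 0 between arrays, while its other probe read -0.33.

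The polymerases did not share a direction. Pold1, the catalytic subunit of polymerase delta, had signals of 16739 with RankL and 12013 without on array 1, and of 18692 and 14099 on array 2. It was higher on both arrays, at 0.44 ± 0.068 or 136% of the untreated level, and its other probe read 0.55. Pole, the catalytic subunit of polymerase epsilon, had signals of 3584 and 2517 on array 1 and of 4340 and 3669 on array 2. It too was higher on both, at 0.40 ± 0.23. Neither met the size rule. In contrast, Prim1, the primase that makes the RNA primers, was at -0.68 ± 0.40 and Pola1, the polymerase that extends them, at -0.48 ± 0.25.

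Pold2, Pold3, Pole2 and Pole3 are smaller subunits of polymerases delta and epsilon, looked up after the values of Pold1 and Pole were seen. They were not higher. Pold2 was at -0.71 ± 0.61 and Pold3 at -0.32 ± 0.024, Pole2 at -0.34 ± 0.45 and Pole3 at -0.27 ± 0.13. The large errors of Pold2 and Pole2 come from unlike arrays, with Pold2 at -0.28 and -1.14. The enzymes that finish lagging-strand fragments were lower on both arrays, the ligase Lig1 at -0.58 ± 0.096 and the flap nuclease Fen1 at -0.51 ± 0.19. Rpa2, a subunit of the protein that coats unwound DNA, was at -0.42 ± 0.076.

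Regulators of S-phase entry followed the same direction. E2f1, a transcription factor of S-phase genes, had signals of 317.7 with RankL and 753.2 without on array 1, and of 414.9 and 668.4 on array 2. It was lower on both arrays, at -0.65 ± 0.17, with its other probe at -0.32. E2f1 was dim, and the scanner software's ratios, on the scale of these signals, read -1.25 on array 1 and -0.69 on array 2. Ccne1, the cyclin that partners Cdk2 at the start of S phase, was at -0.47 ± 0.052, and its other probe read -0.14.

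Among the G2/M genes, the cyclins, Cdk1 and its activator Cdc25c had a median of -0.50 over 5 genes, all below 0 on both arrays. Ccna2, the A-type cyclin of S phase and G2, had signals of 3704 with RankL and 7585 without on array 1, and of 4253 and 6740 on array 2. It was lower on both arrays, by 1.11 on array 1 and 0.44 on array 2 on the log2 scale. Ccnb2 was at -0.65 ± 0.15 and Ccnb1 at -0.50 ± 0.077, where the other Ccnb1 probes read -0.26 and -0.098. Cdk1 was at -0.49 ± 0.013, close to the same value on each array. The phosphatase Cdc25c, which activates Cdk1, was dim and at -0.19 ± 0.17, where the scanner software's ratio read -0.63.

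Mki67, the widely used marker of cycling cells, had signals of 12068 with RankL and 15531 without on array 1, and of 12961 and 18596 on array 2. It was lower on both arrays, at -0.44 ± 0.21, and its other probe read -0.36. Top2a, the topoisomerase that untangles chromosomes, was at -0.31 ± 0.039, with its other probe at -0.30. Of the genes of the anaphase-promoting complex, the ubiquitin-conjugating enzyme Ube2c was at -0.63 ± 0.24 and the activator Cdc20 at -0.34 ± 0.19.

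The mitotic kinases and checkpoint genes had the largest median SD between arrays of the roles, 0.25. Birc5, survivin, a partner of Aurora B, was at -0.49 ± 0.054 and the Polo kinase Plk1 at -0.48 ± 0.39. Aurkb was at -0.32 ± 0.40, Bub1b at -0.30 ± 0.12 and Aurka at -0.24 ± 0.062. Aurkb and Bub1b were dim, and the scanner software's ratios read -0.72 and -0.54 for them. Bub1, a kinase of the spindle checkpoint, read -0.11 on array 1 and 0.52 on array 2. Its 2 probes disagreed in sign, at 0.21 and -0.067, so Bub1 has no settled direction here.

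Kinetochore genes lay below 0 on both arrays in 4 of 4 cases, with a median of -0.26. Cenpe, a kinesin that aligns chromosomes, was at -0.37 ± 0.11, Nuf2 at -0.31 ± 0.25, the centromeric histone Cenpa at -0.20 ± 0.090 and Ndc80 at -0.15 ± 0.064. Ndc80 was dim, and the scanner software's ratios read 0.16 for it on array 1 and -0.34 on array 2. Its direction thus depended on the processing. Of 5 spindle and cytokinesis genes, Nusap1 was at -0.49 ± 0.083, Tpx2 at -0.31 ± 0.0045, Kif11 at -0.23 ± 0.025 and Kif23 at -0.17 ± 0.072. Kif11 and Kif23 were dim, and the software's ratios read -0.56 and -0.34 for them. Kif20a, a kinesin of cytokinesis, was at 0.034 ± 0.025 although its signals were bright, at 3269 with RankL and 3610 without on array 1 and at 3777 and 3515 on array 2. Its sign turned with median centring and with the ratios of the scanner software, so it has no settled direction.

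The S-phase genes were lower than the G2/M genes by their medians, -0.47 against -0.32, but not on both arrays alike. The difference of the medians was -0.16 over the arrays' mean ratios, -0.022 on array 1 and -0.16 on array 2. Ratios taken as the software gave them put it at -0.055. The S-phase genes were also the brighter, with a median log2 intensity of 9.95 against 8.68. Within bands of intensity the groups differed little in the middle and bright bands and more in the dim one. Between log2 intensities of 8 and 10 the median was -0.48 for 10 S-phase genes and -0.49 for 7 G2/M genes. At 10 and above it was -0.49 for 13 and -0.44 for 9, with an order that turned between arrays (-0.39 against -0.48 on array 1, -0.41 against -0.29 on array 2). Below 8 it was -0.42 for 4 S-phase genes and -0.20 for 8 G2/M genes, a wider gap than over all members. All measured genes had medians of 0.0098, -0.0019 and 0.016 from the dim to the bright band, all near 0. The offset added in background correction draws dim ratios towards 0. The 12 dim members had a median of -0.55 by the software and of -0.21 here.

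**Figure D3:**
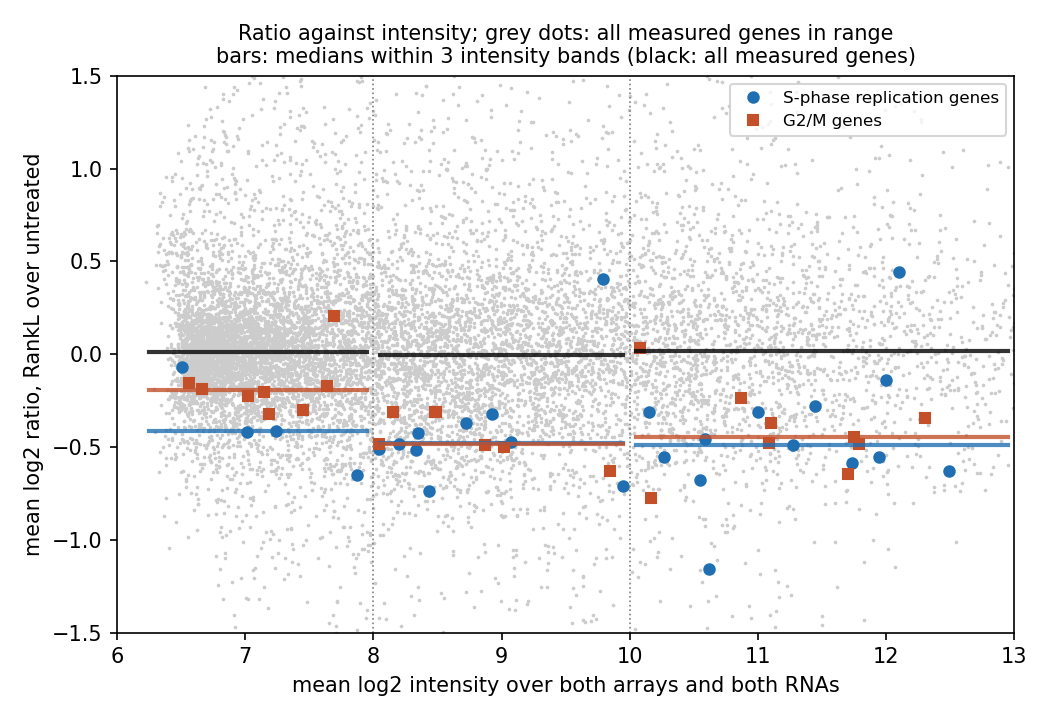
Mean log2 ratio against mean log2 intensity for S-phase genes (blue circles), G2/M genes (red squares) and all measured genes within the plotted range (grey dots), with medians per intensity band as bars of the same colours, black for all measured genes. In the middle and bright bands the blue and red bars lie together near -0.5 while the black bars lie at 0.

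The promoters of the members were also searched for elements of the cell cycle. The members were listed as cell-cycle genes, so the shares below describe the list and not the response to RankL. A RefSeq promoter (GRCm38.p6) was found for 45 of the 55 members, and the 250 bases before the gene start were searched on both strands. Some genes, such as Mcm7, Fen1 and Prc1, had several listed starts. Each gene was counted once, as holding an element if any of its starts did. The E2F letters TTTCCCGC, TTTCGCGC, TTTGGCGC or TTTGCCGC, which can overlap each other across strands, stood in 6 of 24 S-phase promoters (25%) and 1 of 21 G2/M promoters (4.76%). They stood in 2.16% of all 27025 genes with a promoter and in 3.93% of the 8387 measured ones. The CHR letters TTTGAA stood in 8 of 21 G2/M promoters (38.1%) and 3 of 24 S-phase promoters (12.5%), against 18.3% of all and 12.9% of measured genes. The letters CCAAT, in either orientation, stood in 17 of 21 G2/M promoters (81.0%) and 14 of 24 S-phase promoters (58.3%), against 37.5% and 40.6%. All 8 G2/M promoters with the CHR letters also held CCAAT, a combination found in 6.45% of all and 4.91% of measured genes.

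The sequences below show these elements in Mcm5 and Mcm6 for the S-phase genes and in Cdk1, Ccnb2 and Ube2c for the G2/M genes, beside Tk1 and Pold1 as the lowest and highest member. Each is the stretch of 250 bases that ends at the gene start, 5′ to 3′ on the gene's strand, with E2F, CHR and CCAAT matches in capitals.
Mcm5, chr8:75109259-75109508, plus strand: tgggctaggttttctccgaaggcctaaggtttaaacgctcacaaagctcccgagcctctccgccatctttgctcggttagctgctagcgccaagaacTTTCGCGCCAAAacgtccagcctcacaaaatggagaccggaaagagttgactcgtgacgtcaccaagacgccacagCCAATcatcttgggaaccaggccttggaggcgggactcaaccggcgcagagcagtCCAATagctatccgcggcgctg
Mcm6, chr1:128359706-128359955, minus strand: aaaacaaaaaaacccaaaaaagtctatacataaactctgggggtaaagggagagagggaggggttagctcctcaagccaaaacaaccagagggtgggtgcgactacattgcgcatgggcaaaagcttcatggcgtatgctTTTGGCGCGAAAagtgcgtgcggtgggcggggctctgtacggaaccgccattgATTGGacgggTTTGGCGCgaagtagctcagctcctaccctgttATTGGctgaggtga
Cdk1, chr10:69352913-69353162, minus strand: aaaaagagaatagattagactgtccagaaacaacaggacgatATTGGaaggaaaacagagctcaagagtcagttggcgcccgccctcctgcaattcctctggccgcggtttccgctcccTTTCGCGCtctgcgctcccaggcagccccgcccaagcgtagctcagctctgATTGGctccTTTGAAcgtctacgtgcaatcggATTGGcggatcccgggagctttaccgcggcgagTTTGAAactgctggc
Ccnb2, chr9:70421555-70421804, minus strand: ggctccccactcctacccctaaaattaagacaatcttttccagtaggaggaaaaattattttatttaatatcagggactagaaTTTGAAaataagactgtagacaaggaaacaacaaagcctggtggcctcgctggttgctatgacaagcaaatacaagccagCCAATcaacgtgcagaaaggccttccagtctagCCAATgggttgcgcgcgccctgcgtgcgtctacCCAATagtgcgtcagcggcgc
Ube2c, chr2:164769679-164769928, plus strand: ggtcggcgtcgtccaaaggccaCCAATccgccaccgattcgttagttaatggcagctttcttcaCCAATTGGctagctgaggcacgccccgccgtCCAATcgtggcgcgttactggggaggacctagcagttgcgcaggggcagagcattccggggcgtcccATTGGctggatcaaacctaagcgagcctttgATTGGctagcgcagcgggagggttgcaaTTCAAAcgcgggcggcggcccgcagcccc
Tk1, chr11:117826015-117826264, minus strand: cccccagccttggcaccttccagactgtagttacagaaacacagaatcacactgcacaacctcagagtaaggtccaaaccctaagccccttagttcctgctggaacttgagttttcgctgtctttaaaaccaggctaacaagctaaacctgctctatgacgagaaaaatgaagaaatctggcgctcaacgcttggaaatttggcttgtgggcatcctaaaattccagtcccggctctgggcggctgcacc
Pold1, chr7:44548816-44549065, minus strand: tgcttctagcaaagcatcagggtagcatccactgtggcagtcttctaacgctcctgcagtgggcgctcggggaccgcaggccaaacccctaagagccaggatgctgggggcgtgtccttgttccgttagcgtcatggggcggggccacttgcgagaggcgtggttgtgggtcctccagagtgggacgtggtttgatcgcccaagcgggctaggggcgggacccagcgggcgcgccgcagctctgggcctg
In Mcm5 the E2F letters begin at positions -153 and -149 from the start, overlapping on opposite strands, and in Mcm6 at -110, -106 and -47. Cdk1 holds E2F letters at -131 and CHR letters at -71 and -15. In Ube2c the CHR letters begin at -29, with 6 CCAAT matches before them. Tk1 and Pold1, which differ most in their ratios, hold none of these letters in this window.

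Members with and without an element had overlapping ratios. The 6 S-phase genes with E2F letters ran from -0.63 to -0.28 (median -0.44), and 16 measured ones without them from -1.16 to 0.44 (median -0.53). The 7 measured G2/M genes with CHR letters ran from -0.65 to -0.23 (median -0.44), and 12 without them from -0.50 to 0.21 (median -0.31). For CCAAT the order was the opposite, with a median of -0.34 for 15 G2/M genes that hold it and -0.40 for 4 that do not. A match of letters describes a sequence and shows no binding.

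Other genes of the same pathways, from lists that hold no member, were mostly below 0 on both arrays, where 35.1% of all measured genes were. Of 37 measured among 39 other replication genes, 0 were higher and 0 lower by the size rule, and 29 (78.4%) lay below 0 on both arrays, with a median of -0.31. The farthest were the E2F family repressor E2f8 at -0.78 ± 0.060, the maintenance DNA methyltransferase Dnmt1 at -0.73 ± 0.39 and Pold2 on the low side. On the high side stood the origin recognition subunit Orc4 at 0.32 ± 0.17, the dUTPase Dut at 0.28 ± 0.11 and the GINS subunit Gins3 at 0.075 ± 0.18. Of 43 measured among 50 other mitosis genes, 0 were higher and 0 lower, and 27 (62.8%) lay below 0 on both arrays, 5 above and 11 mixed, with a median of -0.24. The centrosomal kinase Nek2 was at -0.82 ± 0.054, Cenpf at -0.64 ± 0.72 and the G2/M transcription factor Foxm1 at -0.57 ± 0.13. Against them stood the transcription factor Mybl2 at 0.61 ± 0.27 and the cytokinesis factor Ect2 at 0.60 ± 0.15. Depdc1a lay on the same side, at 0.57 ± 0.19 or 1.49-fold, with 0.44 on array 1 and 0.71 on array 2. Its untreated signal was too dim to pass the background limit. The ratio used that dim signal, so 1.49-fold is an estimate and not a lower limit. These counts of 0 depend on the scaling. By the software's ratios E2f8 (-1.69) and Ticrr (-1.06) of the replication list met the size rule as lower, as did Nek2 (-1.31), Ckap2l (-1.26) and Kif18a (-1.18) of the mitosis list, and Depdc1a met it as higher.

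Some regulators upstream of the cycle differed by more than any member. Of 9 measured among 12 G1 cyclin, CDK and E2F genes, 1 was lower by the size rule, 0 were higher and the median was -0.27. It was the D-type cyclin Ccnd2, at -3.00 on array 1 and -1.96 on array 2, or 5.58-fold lower. Ccnd1 had no probe matched here. Of 14 measured among 16 CDK inhibitor and arrest genes, 2 were higher, 2 lower and 10 neither. Cdkn2b, which encodes the inhibitor p15 of Cdk4 and Cdk6, was at 1.72 ± 0.027 and the stress gene Gadd45a at 1.57 ± 0.24. Related inhibitors of the same kinases were lower, Cdkn2d at -1.06 ± 0.12 and Cdkn2c at -1.03 ± 0.47, but neither reached 2-fold on array 2 alone, at -0.98 and -0.69. The median of this list was 0.18 but -0.032 on array 1 alone, so it had no settled direction.

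**Figure D4:**
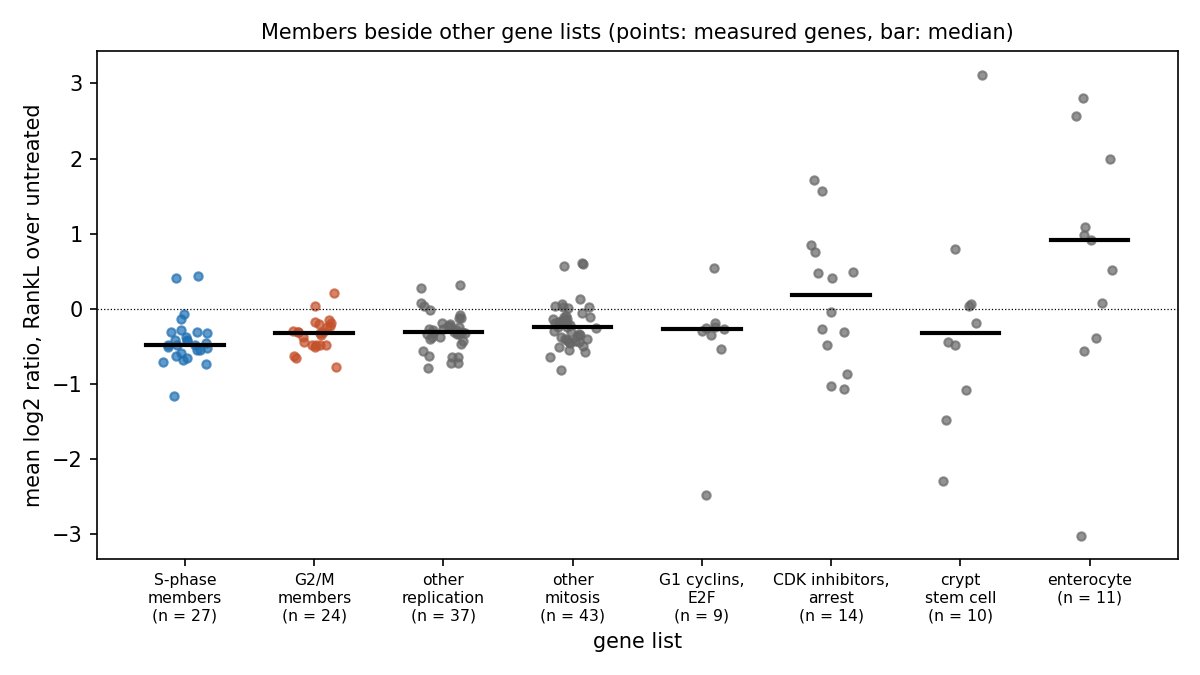
Mean log2 ratio of each measured gene (points) and list median (bars) for the S-phase and G2/M members and for 6 other lists. The members and the other replication and mitosis genes form narrow clouds centred below 0, while the inhibitor, stem cell and enterocyte lists reach from below -1 to above 1.

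Markers of crypt stem cells and of enterocytes ran in both directions. By the size rule, 2.5% of all measured genes were lower and 5.47% higher. Of 10 measured among 12 crypt stem cell markers, 3 were lower, 1 was higher and 6 neither, with a median of -0.31 and a range from -2.30 for Lgr5 to 3.12 for Tnfrsf19. Their summed signal was 19961 to 22494 with RankL and 28887 to 32209 without, and Olfm4, a defining marker, had no probe matched. By the size rule 4 of 11 enterocyte markers, genes of cells that have left the cycle, were higher and 1 was lower. Their median was 0.91, with a range from -3.02 for Fabp1 to 2.81 for Anpep. Their summed signal overlapped between the RNAs, at 448910 to 454195 with RankL and 382198 to 502246 without. The 4 measured fibroblast and endothelial markers had a summed signal of 9198 to 9683 with RankL and 6104 to 6527 without. The part of these cell types in the lower ratios of the replication and mitosis genes was not tested.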

How the data were processed

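Total RNA of RankL-treated and untreated organoids was compared on 2 dual-colour Agilent arrays. Per the file headers, Agilent Feature Extraction 10.5.1.1 made the deposited intensity values (median pixel brightness of spot and local background), whereas version 8.5.1.1 stands in the submitters' processing notes. The deposited log10 ratios and processed signals were background-subtracted and dye-normalized by that software, per the file headers. Both columns of the authors' deposited value table equal those log10 ratios within 5.0e-06, turned to RankL over untreated, with a median of 0. Flags of 0 or 1 per spot, per the file headers, mark spots well above background, saturated or outlying.

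Background was corrected with normexp (offset 50) and ratios were loess-normalized within arrays in limma 3.58.1 under R 4.3.3, with control spots at weight 0. Outlier spots (170 and 164) were left out, and 0 non-control spots were saturated. Repeated spots were averaged, and counted as above background if 0.5 of them were. Ratios were turned to RankL over untreated on the log2 scale and averaged. Names came from RefSeq accessions without version (GRCm38.p6). A gene took its brightest measured probe. The gene step was tested on simulated data.

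The arrays, a dye swap of 1 RNA pair, were 1 replicate, so values are described without a test. Both lay on 1 slide, so no slide batch could be tested. Members and lists were chosen with earlier results of these data known. Every measured member was named. Of each other cell-cycle list, genes meeting the size rule were named or otherwise the 3 farthest from 0 in each direction. A bound was computed for a gene dim in 1 RNA, after loess and Aquantile normalization. The bound set the signal in the other RNA against the lowest signal well above background, or the gene's own dim signal if higher. For Depdc1a the bound equalled its mean ratio. Alternatives were another offset, median centring, the software's ratios, other probe rules and each array alone.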

Additional observations from a re-analysis of the deposited data

How the results depend on the processing

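The members' median stayed below 0 under every alternative run. The members' median was -0.47 with an offset of 16, -0.52 with median centring, -0.56 with the scanner software's ratios and -0.37 with the mean over a gene's measured probes. It ran from -0.41 to -0.38 with 1 array left out. The S-phase median was -0.53, -0.57 and -0.58 with the first 3 of these and ran from -0.45 to -0.38 with 1 array left out. The G2/M median was -0.40 with median centring and -0.53 with the software's ratios, and ran from -0.36 to -0.29 by array. The difference between the groups was -0.055 with the software's ratios and ran from -0.16 to -0.022 by array. Median centring moved the median of all genes to -0.059. From 45 to 48 members lay below 0 on both arrays, or on the array kept. The same share of all genes was 43.1% with median centring, 41.0% with the software's ratios, 28.5% with dim probes included, and 48.8% and 49.0% on a single array. By the software's ratios 781 of all genes were lower and 1148 higher, against 322 and 704. The count of members lower by the size rule ran from 1 to 2 by array, since Ccna2 qualified on array 1 alone, and 0 were higher under any alternative. Kif20a changed sign with median centring and with the software's ratios, and Rfc2 and Bub1 on array 1 alone. The median of the inhibitor and arrest list turned to -0.032 on array 1 alone. The cause of these shifts was not tested. No paired analysis was possible because each group has 1 RNA. With 1 RNA per condition, differences between cultures are not measured, and dim genes are read nearer to 0 than bright ones.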
